A study of Mus musculus with 8 samples.

Results

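The methyl donor S-adenosylmethionine is made from methionine, spent by methyltransferases and rebuilt from homocysteine in the methionine cycle. The genes described are Mat1a and Mat2a, which make the donor, Nnmt, Gnmt, Pemt and Gamt, which spend it, Ahcy, which splits the product S-adenosylhomocysteine, Bhmt, which returns homocysteine to methionine, and Cbs and Cth, which carry homocysteine into cysteine. Members were all probe sets that the platform annotation gives 1 of these symbols. They came to 10 probe sets for 9 of the 10 genes, with 2 probe sets for Cbs and 1 for each other gene. The series had 22626 probe sets without controls, of which the 20380 with 1 symbol stand for 12393 named genes. Mat2a was not analysed here. Nnmt was taken up because its intensity in LXRα vehicle livers stood far above that in GFP vehicle livers, so that difference is a description, with no test.

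RNA came from the livers of 8 mice, with 1 array for each. All were C57B6 mice that lack the low density lipoprotein receptor, aged 8 months, with 12 weeks of Western diet before the experiment. Each had been given a recombinant virus, AAV2.8, when 10 weeks old, which carried a transgene behind the promoter of human thyroxine binding globulin, a promoter of liver cells, so the transgene is an added copy and the mouse's own receptor remains. The groups were human LXRα with T0901317, GFP with T0901317, human LXRα with vehicle, and GFP with vehicle, with 2 livers each. T0901317, a synthetic agonist of liver X receptors (LXR), was injected into the peritoneum at 5 mg/kg, and agonist or vehicle was given for 3 days. The labels do not say that replicate livers were handled apart, so p-values measure the spread between these arrays.

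Nicotinamide N-methyltransferase, the product of Nnmt, joins a methyl group from S-adenosylmethionine to nicotinamide, the precursor of NAD, and the methylated product is oxidised by aldehyde oxidases. In liver, glycine N-methyltransferase (Gnmt) and phosphatidylethanolamine N-methyltransferase (Pemt) are the other large users of the donor, together with guanidinoacetate N-methyltransferase (Gamt), which makes creatine. Liver X receptors are nuclear receptors activated by oxysterols, best known for genes of cholesterol efflux and fatty acid synthesis, and they bind DNA beside the retinoid X receptor at repeats of a half-site. In RefSeq, Nnmt lies on mouse chromosome 9, Mat1a on 14, Gnmt and Cbs on 17, Bhmt on 13, Ahcy on 2, Pemt on 11, Gamt on 10 and Cth on 3.

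RefSeq promoters (GRCm38.p6, 250 bases before to 50 after a listed start) were matched for 7 of the 10 genes. There were 8 windows since Pemt has a pair of listed starts. A listed start need not be the outer end of the gene, and both Pemt windows lie inside its RefSeq locus. They were searched on both strands for AGGTCA, the half-site of many nuclear receptors. Gnmt, Bhmt and Ahcy held it, 3 of the 7 genes, and 16.3% of all 32851 promoters in the table did. The windows of Mat2a, Pemt, Gamt and Cbs held none, and those of Nnmt, Mat1a and Cth were not searched here. A repeat of AGGTCA on 1 strand with 4 bases between the copies was in 0 of the 8 windows and in 0.0152% of all promoters. The 3 windows are shown because they are the members' promoters with a half-site, in capitals. A match is a description of the letters and not a binding site.
Gnmt, chr17:46729116-46729415, minus strand: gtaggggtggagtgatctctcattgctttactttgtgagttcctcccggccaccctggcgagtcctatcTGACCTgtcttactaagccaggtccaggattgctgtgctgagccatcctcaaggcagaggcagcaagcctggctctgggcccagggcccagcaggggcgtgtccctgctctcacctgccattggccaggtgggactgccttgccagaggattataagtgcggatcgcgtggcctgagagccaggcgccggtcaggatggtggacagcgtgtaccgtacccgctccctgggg
Bhmt, chr13:93637709-93638008, minus strand: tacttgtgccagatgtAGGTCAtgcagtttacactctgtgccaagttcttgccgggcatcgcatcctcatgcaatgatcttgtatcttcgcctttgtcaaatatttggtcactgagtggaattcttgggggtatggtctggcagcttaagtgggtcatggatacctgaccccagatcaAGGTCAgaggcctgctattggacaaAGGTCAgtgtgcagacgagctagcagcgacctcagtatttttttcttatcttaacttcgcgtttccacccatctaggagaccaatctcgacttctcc
Ahcy, chr2:155074448-155074747, minus strand: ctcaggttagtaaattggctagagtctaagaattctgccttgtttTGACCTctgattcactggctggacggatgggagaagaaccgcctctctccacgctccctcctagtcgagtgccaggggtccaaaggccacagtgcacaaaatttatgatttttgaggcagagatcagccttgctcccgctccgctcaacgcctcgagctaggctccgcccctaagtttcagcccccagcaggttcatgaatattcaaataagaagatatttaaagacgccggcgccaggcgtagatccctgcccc
In Gnmt the match began 181 bases before the listed start and in Ahcy 205 bases before it, both on the opposite strand to the gene. In Bhmt the 3 matches, on the strand of the gene, began 234, 72 and 47 bases before the start.

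The 8 arrays had median intensities of 21.0 to 23.2, and the 2 arrays of a group correlated at 0.968 to 0.986 (Pearson r of log2 intensity across probe sets). Sums of 8 hepatocyte markers (Alb, Apoa1 and others) lay between 70970 and 91430 on the 8 arrays. The 3'/5' ratio of the β-actin control, which rises where the 5' part of transcripts is lost, was 2.75 and 36.3 in LXRα T0901317 livers, 7.56 and 11 in GFP T0901317 livers, 2.61 and 3.08 in LXRα vehicle livers, and 2.21 and 2.08 in GFP vehicle livers. Of the 4 T0901317 arrays, 3 therefore stood apart on this measure, and values without them are given below where they can be had. Intensities were raised to a floor of 7.50, taken as log2 and tested with limma over 15838 probe sets above a filter on dim values. All 10 member probe sets passed it. A difference was called where the Benjamini-Hochberg adjusted p over all 15838 was under 0.05.

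Nnmt was the member that varied most. Its intensity was 303 and 128 in LXRα T0901317 livers, 572 and 1319 in GFP T0901317 livers, 793 and 1725 in LXRα vehicle livers, and 52.4 and 293 in GFP vehicle livers. The LXRα vehicle and GFP T0901317 groups were high and overlapped each other, and the LXRα T0901317 and GFP vehicle groups were low and overlapped each other, while each high group lay wholly above each low group. In this order the mean log2 intensities were 10.19 ± 0.79 in LXRα vehicle, 9.76 ± 0.85 in GFP T0901317, 7.62 ± 0.88 in LXRα T0901317 and 6.95 ± 1.76 in GFP vehicle livers (SD, n = 2 each). The highest array, LXRα vehicle replicate 2, was 32.9 times the lowest, GFP vehicle replicate 1, a range wider than that of 99.46% of tested probe sets. Both are vehicle arrays on which Nnmt was chosen, so this rank is a description and supports nothing.

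With T0901317 in both groups, Nnmt had 303 and 128 in LXRα livers against 572 and 1319 in GFP livers, a difference of -2.14 on the log2 scale (SE 0.89, 95% interval -4.25 to -0.04). Nnmt was chosen on the vehicle arrays, but with earlier results of all 8 arrays known, so its p is no independent evidence. The difference was not called (unadjusted p = 0.047, limma adjusted p = 1.00), and 0% of all tested probe sets were called in this comparison, where 355, or 2.24%, had an unadjusted p under 0.05. Of the 10 member probe sets, Nnmt was the 1 with such a p and the 1 that did not overlap between the groups, against 8.72% of tested probe sets that were lower without overlap.

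The other Nnmt differences share arrays with the choice and carry no test. LXRα vehicle livers stood 3.24 above GFP vehicle livers on the log2 scale, 9.44 times. T0901317 livers stood 2.81 above vehicle livers with GFP, 7.01 times, and with LXRα they differed by -2.57, with vehicle livers 5.94 times as high. The difference between these T0901317 differences, LXRα less GFP, was -5.38, and averaged over both transgenes T0901317 livers differed from vehicle livers by 0.12. Nnmt was thus higher with either the transgene or the agonist alone than with GFP and vehicle, and the livers with both overlapped those with neither. The sizes rest on single GFP vehicle arrays. Without GFP vehicle replicate 1, the lowest array, the LXRα vehicle livers stood 2.00 above GFP vehicle, the GFP difference was 1.57, the difference between differences -4.14 and the average -0.50. Without GFP vehicle replicate 2 these values were 4.48, 4.05, -6.62 and 0.74, so the average changes sign.

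Replicate livers differed more in Nnmt than in most probe sets. The gap between the 2 arrays was 1.24 in LXRα T0901317, 1.2 in GFP T0901317, 1.12 in LXRα vehicle and 2.48 in GFP vehicle livers on the log2 scale. These gaps exceeded those of 93.12%, 97.58%, 96.73% and 99.67% of tested probe sets in the same groups, in that order. In RNA of whole liver, fewer cells of a type and less RNA per cell cannot be told apart.

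**Figure D1:**
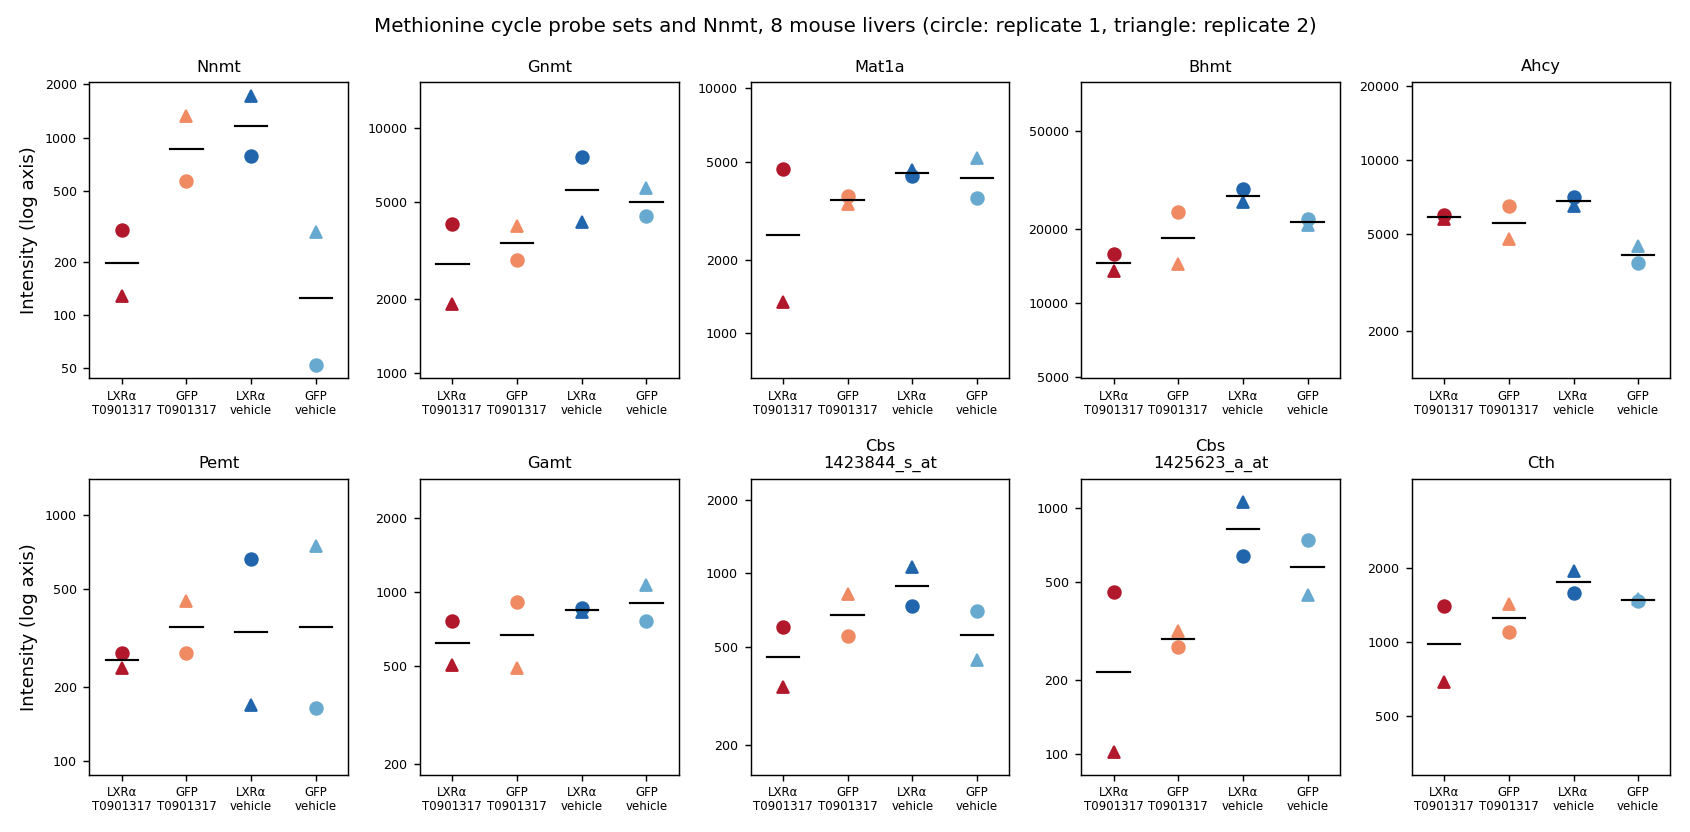
Intensity (log axis) of the 10 member probe sets in 8 mouse livers, with the 4 groups on the horizontal axis, a circle for replicate 1, a triangle for replicate 2 and a bar at the mean of the log2 values. Nnmt spans 52.4 to 1725, with LXRα vehicle and GFP T0901317 livers above the other groups, and LXRα T0901317 replicate 2 is the lowest array in 6 of the 10 panels.

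Mat1a encodes the methionine adenosyltransferase of adult liver, which makes S-adenosylmethionine. Its intensity was 4686 and 1343 in LXRα T0901317 livers, 3639 and 3372 in GFP T0901317 livers, 4392 and 4619 in LXRα vehicle livers, and 3547 and 5156 in GFP vehicle livers. LXRα T0901317 replicate 2 lay far below the other 7, and every pair of groups overlapped except that both GFP T0901317 arrays lay below both LXRα vehicle arrays. T0901317 livers differed from vehicle livers by -0.84 with LXRα (SE 0.54, limma adjusted p = 0.479) and by -0.29 with GFP (SE 0.54, adjusted p = 0.800). With the β-actin ratio in the fit the LXRα difference was 0.025 and the GFP difference 0.71, and without the 3 arrays of high ratio the LXRα difference was 0.057. The ratio term is fitted within groups, and the ratio differed most within the LXRα T0901317 pair (2.75 and 36.3). The adjustment of the GFP value, here and for other members below, therefore rests mainly on that pair. Without LXRα T0901317 replicate 1, the array of low ratio, the LXRα difference was -1.75. That fit leaves the array of ratio 36.3 alone in its group.

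Gnmt takes up excess S-adenosylmethionine by methylating glycine. Its intensity was 4053 and 1925 in LXRα T0901317 livers, 2900 and 3968 in GFP T0901317 livers, 7603 and 4117 in LXRα vehicle livers, and 4366 and 5680 in GFP vehicle livers. All 4 T0901317 arrays lay below all 4 vehicle arrays, though LXRα T0901317 replicate 1 was only just below LXRα vehicle replicate 2. The mean log2 intensity was 11.59 ± 0.50 in T0901317 livers and 12.37 ± 0.40 in vehicle livers (SD, n = 4 each), a difference of -0.78 averaged over the transgenes (SE 0.31, unadjusted p = 0.042, limma adjusted p = 0.204). By exact two-sided permutation of 4 arrays against 4 the p was 0.0286, the smallest that 70 splits allow, which 16.6% of tested probe sets reached, and the adjusted p was 0.172. Within the transgenes the differences were -1.0 with LXRα (adjusted p = 0.386) and -0.55 with GFP (adjusted p = 0.564). With the β-actin ratio in the fit the GFP difference was 0.033. Without LXRα T0901317 replicate 2, the array of ratio 36.3, the LXRα difference was -0.47 and the average -0.51, and without LXRα T0901317 replicate 1 they were -1.54 and -1.05.

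Pemt makes phosphatidylcholine from phosphatidylethanolamine with 3 methyl groups taken from the donor in turn. Its intensity was 274 and 240 in LXRα T0901317 livers, 274 and 445 in GFP T0901317 livers, 663 and 169 in LXRα vehicle livers, and 165 and 751 in GFP vehicle livers. The vehicle livers of each transgene spread so widely that every T0901317 array lay between the vehicle arrays of its own transgene. The replicate gap of Pemt exceeded that of 99.36% of tested probe sets in LXRα vehicle and 99.56% in GFP vehicle livers. The averaged T0901317 difference of -0.20 had a 95% interval of -1.60 to 1.21, which includes a factor of 2 in either direction.

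Gamt, which methylates guanidinoacetate to creatine, had 762 and 505 in LXRα T0901317 livers, 906 and 487 in GFP T0901317 livers, 857 and 827 in LXRα vehicle livers, and 763 and 1066 in GFP vehicle livers. In LXRα livers both T0901317 arrays lay below both vehicle arrays, and in GFP livers the groups overlapped. The difference was -0.44 with either transgene (SE 0.37, limma adjusted p = 0.574 with LXRα and 0.585 with GFP), and the LXRα value was -0.14 without LXRα T0901317 replicate 2.

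Ahcy, adenosylhomocysteinase, removes the S-adenosylhomocysteine that every one of these methyltransferases leaves behind and that inhibits them. Its intensity was 5958 and 5718 in LXRα T0901317 livers, 6459 and 4741 in GFP T0901317 livers, 7024 and 6486 in LXRα vehicle livers, and 3785 and 4451 in GFP vehicle livers. The GFP vehicle livers were the lowest and the LXRα vehicle livers the highest, as for Nnmt, and T0901317 livers lay above vehicle livers with GFP and below them with LXRα, without overlap in either. Of tested probe sets, 1.52% were higher with T0901317 in GFP livers and lower with it in LXRα livers, without overlap in either. Nnmt and Ahcy were the 2 members that had these opposite orders. Nnmt was chosen on the vehicle arrays that enter this order, so its place in the count supports nothing. That share does not count the order of the other groups, and the T0901317 groups of Ahcy overlapped each other. The differences were 0.43 with GFP (SE 0.22, adjusted p = 0.446) and -0.21 with LXRα (SE 0.22, adjusted p = 0.641). The difference between them was -0.64 (SE 0.31, limma unadjusted p = 0.076, adjusted p = 1.00), in a comparison in which 0.00631% of tested probe sets were called. LXRα vehicle livers stood 0.72 above GFP vehicle livers, given with no test.

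Bhmt encodes betaine-homocysteine methyltransferase, which rebuilds methionine with a methyl group from betaine. Its intensity was 15760 and 13440 in LXRα T0901317 livers, 23480 and 14380 in GFP T0901317 livers, 28880 and 25610 in LXRα vehicle livers, and 21860 and 20760 in GFP vehicle livers. Both LXRα T0901317 arrays lay well below both LXRα vehicle arrays, with replicate gaps that were small in each, and the GFP groups overlapped. The LXRα difference was -0.90 (SE 0.25, 95% interval -1.49 to -0.31), with vehicle livers 1.87 times as high, and had the smallest p of the members in this comparison (unadjusted p = 0.0087, limma adjusted p = 0.235). Leaving out single arrays moved it between -1.02 and -0.79. The GFP difference was -0.21 (SE 0.25, adjusted p = 0.689), and the LXRα difference less the GFP difference was -0.69 (SE 0.35, adjusted p = 1.00), so the transgenes were not shown to differ in this. Without GFP T0901317 replicate 1 that difference was -0.34, and without GFP T0901317 replicate 2 it was -1.04.

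Cbs, cystathionine β-synthase, takes homocysteine out of the cycle by joining it to serine. Its probe set with the suffix _s_at had 605 and 346 in LXRα T0901317 livers, 556 and 824 in GFP T0901317 livers, 736 and 1066 in LXRα vehicle livers, and 706 and 446 in GFP vehicle livers. Its probe set with the suffix _a_at had 454 and 102 in LXRα T0901317 livers, 271 and 317 in GFP T0901317 livers, 641 and 1060 in LXRα vehicle livers, and 741 and 444 in GFP vehicle livers. With LXRα both probe sets were lower in T0901317 livers without overlap, by -0.95 (SE 0.40, limma adjusted p = 0.378) and by -1.94 (SE 0.67, adjusted p = 0.318). Without LXRα T0901317 replicate 2 these were -0.55 and -0.86. With GFP they differed in direction, 0.27 for _s_at (adjusted p = 0.749) and -0.97 for _a_at (adjusted p = 0.527).

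The ratio of the Cbs probe sets, _s_at over _a_at, moved with the RNA quality measure. It was 1.33 and 3.39 in LXRα T0901317 livers, 2.05 and 2.60 in GFP T0901317 livers, 1.15 and 1.01 in LXRα vehicle livers, and 0.953 and 1.01 in GFP vehicle livers. The 3 arrays with β-actin ratios of 7.56, 11 and 36.3 had the 3 highest Cbs ratios, so the T0901317 difference of Cbs depends on which probe set is read. With the β-actin ratio in the fit the GFP difference of the _a_at probe set was 0.16. Without LXRα T0901317 replicate 1 the LXRα difference of the _a_at probe set was -3.02 and was called (adjusted p = 0.0378), with the array of ratio 36.3 left as the lone array of its group.

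**Figure D2:**
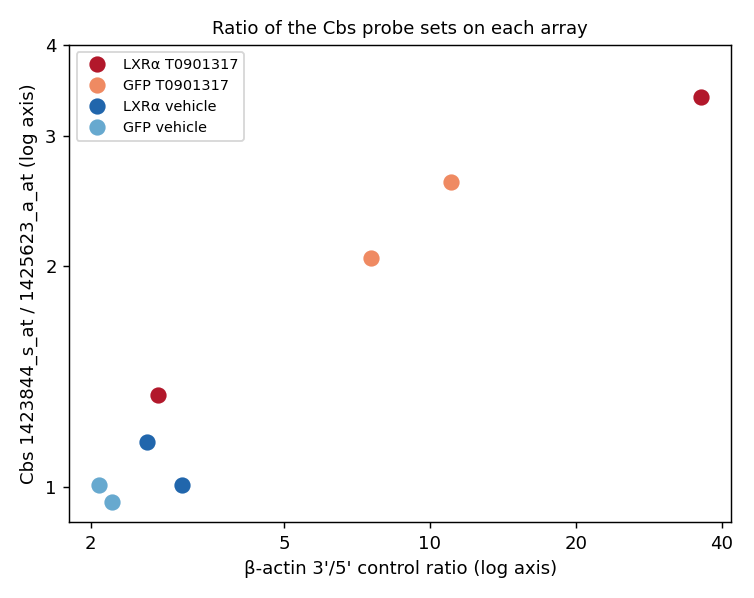
Ratio of the Cbs probe sets (_s_at over _a_at, log axis) against the β-actin 3'/5' control ratio (log axis), with 1 point for each of the 8 arrays and colours for the 4 groups. The 3 arrays with β-actin ratios from 7.56 to 36.3 have Cbs ratios from 2.05 to 3.39, and the other 5 arrays lie between 0.953 and 1.33.

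Cth, cystathionine γ-lyase, releases cysteine from the product of Cbs. Its intensity was 1404 and 687 in LXRα T0901317 livers, 1097 and 1429 in GFP T0901317 livers, 1586 and 1937 in LXRα vehicle livers, and 1472 and 1500 in GFP vehicle livers. All 4 T0901317 arrays lay below all 4 vehicle arrays, by a small margin with GFP. The averaged difference was -0.54 (SE 0.25, limma adjusted p = 0.238), and the exact two-sided permutation p was 0.0286 (adjusted p = 0.172), again the smallest possible. Within the transgenes the differences were -0.84 with LXRα (adjusted p = 0.381) and -0.25 with GFP (adjusted p = 0.745), and with the β-actin ratio in the fit the GFP difference was 0.28. Without LXRα T0901317 replicate 2 the LXRα difference was -0.32 and the average -0.28, and without LXRα T0901317 replicate 1 they were -1.35 and -0.80.

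With Nnmt left aside, the 9 other probe sets were all lower in LXRα T0901317 than in LXRα vehicle livers, with a median difference of -0.84 against -0.05 over all tested probe sets, and 0 of them were called. In 7 of the 9 the groups did not overlap (all but Mat1a and Pemt), where 28.4% of tested probe sets were lower without overlap. An unadjusted p under 0.05 was found for 3 of the 9 (Bhmt and both Cbs probe sets), as did 13.2% of tested probe sets, and 0.0253% of tested probe sets were called. Members share arrays and are not replicates of each other, and LXRα T0901317 replicate 2, the array with the β-actin ratio of 36.3, was the lowest of the 8 arrays for 6 of the 10 member probe sets and for 12.8% of all tested. Without the 3 arrays of high ratio, 8 of the 9 were still lower, with a median of -0.32 against -0.07 over all tested probe sets, of which 55.7% were lower. That leaves 1 array in the LXRα T0901317 group.

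Of the 9 in GFP livers, 2 were higher and 7 lower with T0901317, with a median of -0.25 against -0.05 over all tested probe sets, and 0 were called, as were 0% of all tested, while 0 of the 9 had an unadjusted p under 0.05. Lower without overlap were 3 (Gnmt, Cth and the _a_at probe set of Cbs), where 35.2% of tested probe sets were. Of the 9, 1 (Ahcy) was higher without overlap, where 23.2% were. These shares are no larger than the background. Averaged over the transgenes, 8 of the 9 were lower, with a median of -0.54 against -0.04 over all tested, 0 were called where 0.568% of tested probe sets were, and 2 (Gnmt and Cth) were lower on all 4 T0901317 arrays, where 8.44% of tested probe sets were. Of the 9, 3 had an unadjusted p under 0.05 (Gnmt, Bhmt and the _a_at probe set of Cbs), as did 23.2% of tested probe sets.

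Between LXRα vehicle and GFP vehicle livers, described with no test, 7 of the 9 were higher and 2 lower, with a median of 0.24 against 0.05 over all tested probe sets. Without overlap, 4 of the 9 were higher (Ahcy, Bhmt, Cth and the _s_at probe set of Cbs), where 30.9% of tested probe sets were, and 0 were lower without overlap, where 13.5% were. With T0901317 in both groups, 8 of the 9 were lower in LXRα than in GFP livers, with a median of -0.35 against 0.03 over all tested probe sets, and 9 of 9 overlapped between the groups. The comparisons share groups, so the values of 1 member in several of them are not independent.

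**Figure D3:**
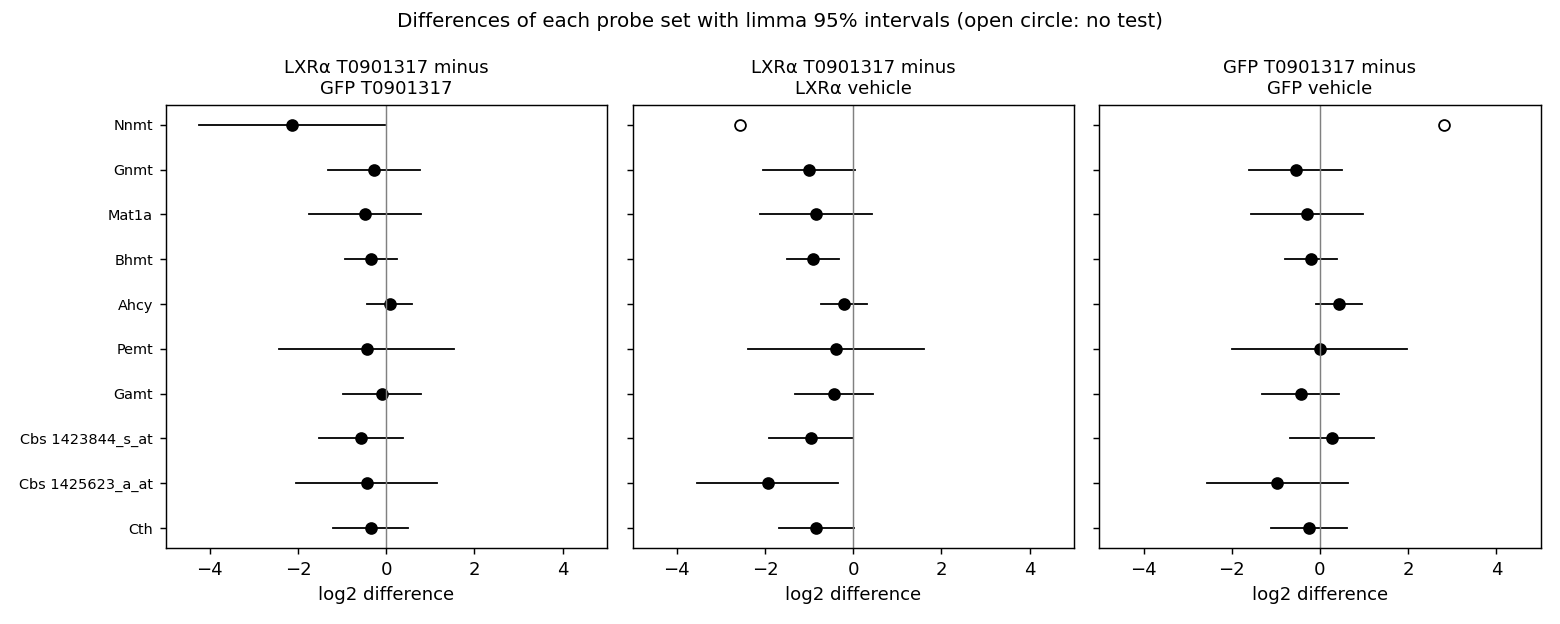
Log2 differences of the 10 member probe sets (rows) in 3 comparisons (panels), with limma 95% intervals as bars and an open circle where no test was made. Nnmt differs by -2.14, -2.57 and 2.81 from left to right, and the other probe sets lie between -1.94 and 0.43.

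**Figure D4:**
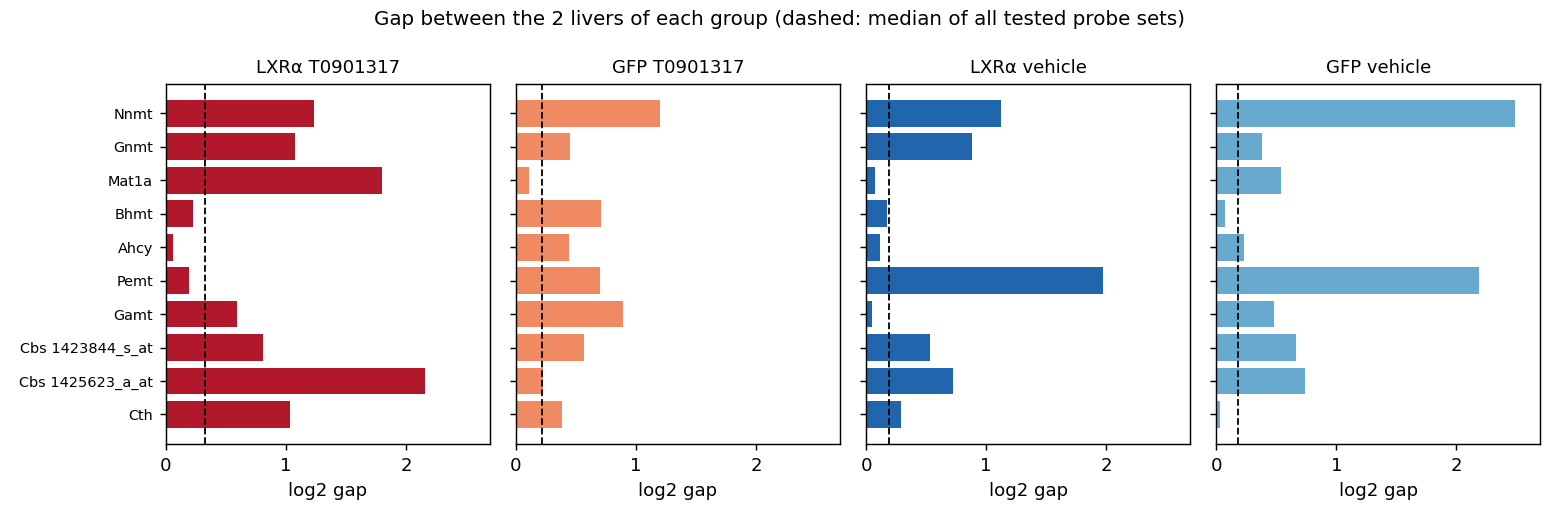
Absolute log2 gap between the 2 livers of each group (panels) for the 10 member probe sets (rows), with a dashed line at the median gap of all tested probe sets, 0.325 in LXRα T0901317, 0.22 in GFP T0901317, 0.189 in LXRα vehicle and 0.185 in GFP vehicle livers. Nnmt exceeds the line in each group, and Pemt has gaps near or above 2 in both vehicle groups.

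Lists of neighbouring genes gave the setting of these values. The 7 lists held 117 genes, of which 90 were tested. They covered other genes of S-adenosylmethionine and homocysteine, folate and choline carbon, other methyltransferases, creatine and phosphatidylcholine, polyamines, nicotinamide and NAD, and cysteine and glutathione. In each tested comparison 0 of the 90 were called, where 0% to 0.568% of tested probe sets were. An unadjusted p under 0.05 was found for 2 (LXRα with T0901317 against GFP with T0901317) and 15 (T0901317 in LXRα livers). With T0901317 in GFP livers 8 had such a p, and averaged over transgenes 17. In the difference between the T0901317 differences, LXRα less GFP, 8 had such a p. Of all tested probe sets 2.24%, 13.2%, 13.2%, 23.2% and 4.77% had such a p in the same comparisons, in that order. The share of the 90 was above the background for T0901317 in LXRα livers and for the difference between differences. In the other comparisons it was below the background. In the averaged comparison 50 of the 90 were higher and 40 lower, with a median of 0.04.

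Of the 5 tested genes of S-adenosylmethionine and homocysteine, 3 were higher and 2 lower in the averaged T0901317 comparison. Adk, adenosine kinase, which clears the adenosine that Ahcy releases, had the smallest p, with a difference of -0.61 (limma adjusted p = 0.141). Other probe sets of Adk differed by -0.3, 0.04 and 0.55, so its probe sets disagree. Mat2b, the regulatory subunit of the other methionine adenosyltransferase, differed by 0.36 (adjusted p = 0.283). Ahcyl2, a relative of Ahcy, differed by 0.69 in GFP livers (adjusted p = 0.328) and by -0.15 in LXRα livers (adjusted p = 0.775). Its other probe set differed by -0.08 in GFP livers and by -0.22 in LXRα livers, so they disagree in GFP livers.

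Of the 20 tested genes of folate and choline carbon, 7 were higher and 13 lower in the averaged comparison. Shmt2, the mitochondrial serine hydroxymethyltransferase, had 164 and 112 in LXRα T0901317 livers, 176 and 130 in GFP T0901317 livers, 282 and 286 in LXRα vehicle livers, and 268 and 216 in GFP vehicle livers. All 4 T0901317 arrays were below all 4 vehicle arrays, with a difference of -0.87 (SE 0.20, limma adjusted p = 0.093). Other probe sets of Shmt2 differed by 0.45 and 0.03, so its probe sets disagree. Sardh, which oxidises the sarcosine that Gnmt makes, differed by -0.91 (adjusted p = 0.113) and Tyms, thymidylate synthase, by -0.30 (adjusted p = 0.161). Aldh1l1, a folate dehydrogenase of liver, differed by 0.78 with T0901317 in GFP livers and by -0.48 in LXRα livers, and the difference between these, -1.26, was not called (adjusted p = 0.957).

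The nicotinamide and NAD list, 11 higher and 6 lower of 17 in the averaged comparison, held the gene nearest to a call. Aox3, an aldehyde oxidase of mouse liver and so of the class that oxidises the product of Nnmt, had 251 and 446 in LXRα T0901317 livers, 418 and 437 in GFP T0901317 livers, 1314 and 1205 in LXRα vehicle livers, and 828 and 606 in GFP vehicle livers. All T0901317 arrays lay below all vehicle arrays, with a difference of -1.32 averaged (SE 0.23, limma adjusted p = 0.069) and -1.91 in LXRα livers (adjusted p = 0.146). Aox1, another aldehyde oxidase, had 681 and 523 in LXRα T0901317 livers, 458 and 302 in GFP T0901317 livers, 463 and 255 in LXRα vehicle livers, and 776 and 515 in GFP vehicle livers. Its T0901317 differences were 0.80 with LXRα (adjusted p = 0.417) and -0.76 with GFP (adjusted p = 0.452), opposite in sign to those of Nnmt. Ido2, which opens the ring of tryptophan, differed by 0.87 averaged (adjusted p = 0.102) and Sirt1, a deacetylase that uses NAD, by 0.84 (adjusted p = 0.111).

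Among the 16 tested genes of other methyltransferases, 9 were higher and 7 lower in the averaged comparison. Coq5, of ubiquinone synthesis, differed by 0.43 (limma adjusted p = 0.194) in the probe set used and by -0.33 in its other. As3mt, the arsenite methyltransferase, differed by 0.65 (adjusted p = 0.199). Of the 9 tested genes of creatine and phosphatidylcholine, 8 were higher and 1 lower, with Etnk1, ethanolamine kinase, at 0.61 (adjusted p = 0.135) in the probe set used and at -0.49 and -0.97 in its others. Gatm, which makes the substrate of Gamt, differed by 0.59 (adjusted p = 0.243). Chpt1, the 1 lower gene, differed by -0.54 (adjusted p = 0.233) in the probe set used and by -0.99, 0.15 and 0.01 in its others. Of the 12 tested polyamine genes, 8 were higher and 4 lower, with Odc1, ornithine decarboxylase, at 0.62 (adjusted p = 0.165). Of the 11 tested genes of cysteine and glutathione, 4 were higher and 7 lower. Csad, which makes taurine from cysteine, had the largest positive difference of the 90 genes, 1.15 averaged (adjusted p = 0.113) and 1.86 in LXRα livers (adjusted p = 0.190), and Gclm, a subunit of glutamate-cysteine ligase, differed by -0.50 (adjusted p = 0.173).

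**Figure D5:**
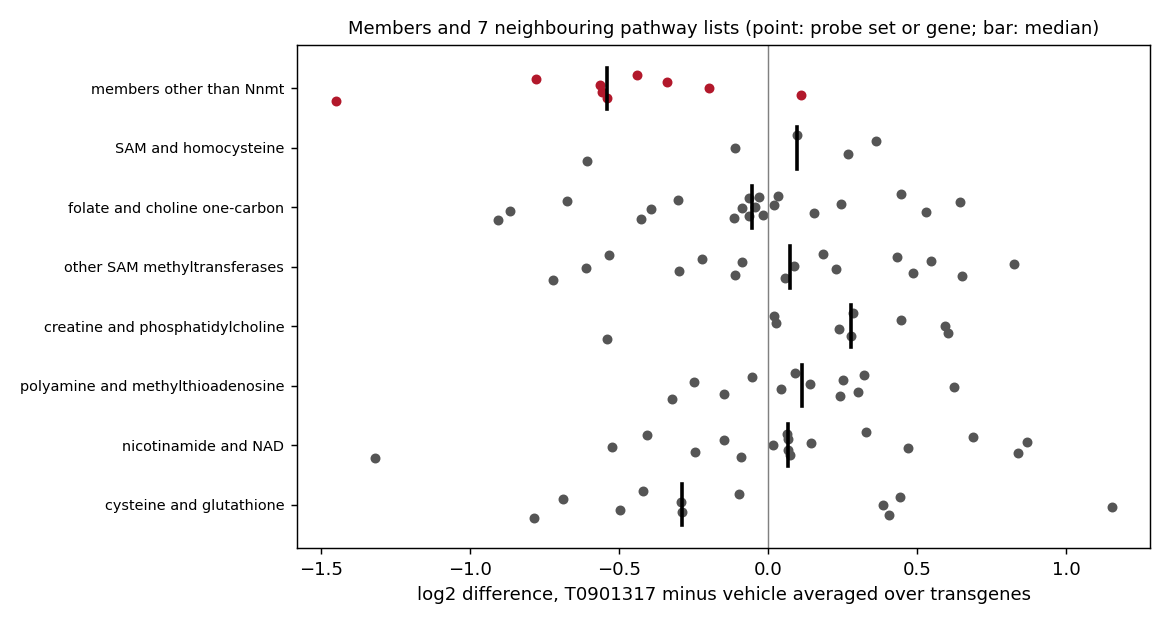
Log2 difference between T0901317 and vehicle livers averaged over the transgenes, for the 9 member probe sets other than Nnmt (top row) and for the genes of 7 neighbouring lists, with 1 point per probe set or gene and a bar at the median of each row. The members' median is -0.54, and the 90 list genes together have a median of 0.04.

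Lists of genes of hepatocyte zones were read beside the members. In each tested comparison 0 genes of either zone were called, where 0% to 0.568% of tested probe sets were. Of 9 tested genes of pericentral hepatocytes, the cells around the central vein, 9 were lower in LXRα T0901317 than in LXRα vehicle livers (median -0.57) and 5 were higher in GFP T0901317 than in GFP vehicle livers (median 0.01). Slc1a2, a glutamate transporter of these cells, had 55.9 and 64.7 in LXRα T0901317 livers, 99.7 and 125 in GFP T0901317 livers, 130 and 153 in LXRα vehicle livers, and 81.4 and 93.3 in GFP vehicle livers, with the group order of Nnmt except that LXRα T0901317 was below GFP vehicle. Its LXRα difference was -1.23 (limma adjusted p = 0.154). Gulo, an enzyme of ascorbate synthesis, and Oat, ornithine aminotransferase, both differed by -1.38 in LXRα livers (adjusted p = 0.182 and 0.192). Of 7 tested periportal genes, 5 were lower in LXRα T0901317 than in LXRα vehicle livers (median -0.31), with Hal at -1.38 (adjusted p = 0.203). The part of these cells in the members' values was not tested.

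Of 9 tested genes that male livers express more highly, 8 were lower in LXRα T0901317 than in LXRα vehicle livers (median -1.92) and 9 were higher in LXRα vehicle than in GFP vehicle livers (median 1.01). Hsd3b5, a hydroxysteroid dehydrogenase, was the gene of this list that stood furthest apart. It had 5.75 and 15.0 in LXRα T0901317 livers, 8.40 and 6.59 in GFP T0901317 livers, 846 and 1079 in LXRα vehicle livers, and 8.10 and 6.82 in GFP vehicle livers. The LXRα vehicle livers stood far above all others, which lay at or near the floor of 7.50. It passed the filter on dim values through that group, so its adjusted p under 0.05 supports nothing, and the size of its LXRα difference, -6.49, depends on the floor. The labels give no sex, and its part in the members' values was not tested.

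Markers of other cell types were summed on each array. Summed intensities of 12 markers of macrophages and Kupffer cells were 11390 and 10420 in LXRα T0901317 livers, 9416 and 16290 in GFP T0901317 livers, 10210 and 4003 in LXRα vehicle livers, and 14100 and 15430 in GFP vehicle livers. The groups of high and of low Nnmt overlapped in this sum, whose lowest value was on LXRα vehicle replicate 2, the array with the highest Nnmt, and whose highest was on GFP T0901317 replicate 2, also of high Nnmt. All 12 were lower in LXRα vehicle than in GFP vehicle livers (median -1.34). With T0901317, 3 of the 12 were higher and 9 lower in GFP livers (median -0.51). In LXRα livers 10 were higher and 2 lower with it (median 0.83). These signs of the medians are opposite to those of Nnmt in the same comparisons. Of 5 adipocyte markers, a cell type that expresses Nnmt strongly, 4 were in the probe table, Adipoq, the defining one, was at the floor on all 8 arrays, and the summed level was 342 and 197 in LXRα T0901317 livers, 183 and 56.6 in GFP T0901317 livers, 187 and 78.2 in LXRα vehicle livers, and 290 and 322 in GFP vehicle livers. That sum was nearly all Cidec, a lipid droplet protein that fatty hepatocytes also express, with 326 and 178 in LXRα T0901317 livers, 168 and 38.0 in GFP T0901317 livers, 170 and 61.2 in LXRα vehicle livers, and 274 and 306 in GFP vehicle livers. Retn, resistin, lay between 14.9 and 19.2 on the 8 arrays. Cidec was lower on each array of the groups with high Nnmt than on any array of the others, and no difference of Cidec was called. The part of these cells in the values of Nnmt was not tested.

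The genes whose log2 intensities followed those of Nnmt most closely over the 8 arrays were Fh1, Ang, Cd302, Kmt5b and Sra1, with Pearson r from 0.963 down to 0.904 among 9358 genes. Ang, angiogenin, had 452 and 221 in LXRα T0901317 livers, 393 and 971 in GFP T0901317 livers, 678 and 1897 in LXRα vehicle livers, and 147 and 492 in GFP vehicle livers, with the same array lowest and the same array highest as Nnmt. Fh1, fumarate hydratase, spanned a narrower range, 1499 and 1322 in LXRα T0901317 livers, 1432 and 1781 in GFP T0901317 livers, 1660 and 1926 in LXRα vehicle livers, and 1115 and 1379 in GFP vehicle livers. The most opposed were Cd83, Ccr2, Rraga, Bcl2l13 and Tmem242, with r from -0.925 to -0.895. Over all genes the 5th percentile of r was -0.566 and the 95th 0.554, and these extremes were picked from all genes over 8 arrays that share groups, so they carry no p. Of the members, Ahcy had the highest r with Nnmt, 0.587, followed by the _s_at probe set of Cbs at 0.586, Cth at 0.459 and Mat1a at 0.395, and Gamt had the lowest, 0.039.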

How the data were processed

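Liver RNA of 8 mice was hybridised to Affymetrix mouse oligonucleotide arrays, 1 per mouse. The deposited values are intensities, 1 for each probe set on each array, on a linear scale as read from their range. How the probes were summarised and the arrays scaled is not given in the sources used here. Intensities were raised to a floor at the 20th percentile of positive values (7.50) and log2-transformed. Of 22690 probe sets, 64 controls were left out, and the 15838 with a mean log2 above the 30th percentile were tested. Symbols came from the platform annotation, in which 20380 probe sets had 1 symbol, 691 several and 1555 none.

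Differences were fitted with limma 3.58.1 in R 4.3.3 as 4 group means on all 8 arrays (eBayes with an intensity trend, 4 residual and 2.93 prior degrees of freedom) and adjusted over all tested probe sets by the Benjamini-Hochberg method. Steps were tested on simulated data. Exact permutation used 4 arrays against 4, and 2 against 2 cannot go below 0.333. Figures were drawn with Python 3.11.15 and matplotlib 3.10.9. Precision is limited by the number of arrays.

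The members and gene lists were chosen with earlier results of these data known. Names were limited to the members, to called list genes and the 3 of smallest p per list and comparison, and to the 5 genes most and least like Nnmt. Each list gene was read from the brightest of its tested probe sets. Alternatives were quantile normalization, median centring, a floor at the 5th percentile, the 50th percentile or nothing as the filter, eBayes without the trend, the log2 β-actin ratio as a term, a replicate block, each array left out, and averaging the probe sets of a gene. Leaving out the 3 arrays of high β-actin ratio was chosen after seeing the data.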

Additional observations from a re-analysis of the deposited data

Results flagged for a closer look

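Nnmt was flagged because both T0901317 arrays lay above both vehicle arrays with GFP and below both with LXRα. The LXRα difference less the GFP difference was -5.38 on the log2 scale. This difference was not tested, since the vehicle arrays were used to choose Nnmt. Ahcy was flagged for the same opposite order, with a value of -0.64 and a limma adjusted p of 1.00. Hsd3b5, of the male-biased list, was flagged because its value of -6.52 had a limma adjusted p of 0.031 in the test of the difference. It lay at or near the floor on 6 of the 8 arrays and passed the filter through the LXRα vehicle group, where it was high, so this p supports nothing and the size depends on the floor. The adjusted p was above 0.05 under 9 of the 16 other settings, among them the floor at the 5th percentile (adjusted p = 0.137), no filter (adjusted p = 0.14) and the fit without LXRα vehicle replicate 2 (adjusted p = 0.288). With 2 arrays in each group, single arrays were not tested against the others of their group.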

How the results depend on the processing

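No member was called in any tested comparison under the alternatives that kept all 8 arrays. Leaving out 1 array gave 0 to 2 called member probe sets with T0901317 in LXRα livers and 0 to 2 averaged over transgenes, and 0 to 2 and 0 to 9 called genes of the 7 neighbouring lists in these comparisons. Each upper value came without LXRα T0901317 replicate 1, where Mat1a (averaged -1.02, limma adjusted p = 0.0327) and the _a_at probe set of Cbs (averaged -1.99, adjusted p = 0.0201) were called, and all other left-out arrays gave 0. That setting called 1506 probe sets in all for the averaged comparison, against 90 with all arrays, 4 with the β-actin ratio in the fit, 17 with the replicate block, 32 after quantile normalization and 15 with no filter. In LXRα livers it called 474 against 4. The labels do not say that a replicate number marks livers handled together. Deviations of same-numbered livers correlated at -0.138 to 0.247, which cannot show whether they were. The replicate block left Nnmt at -2.14 in LXRα T0901317 against GFP T0901317 livers (adjusted p = 1.00) and changed no call of a member. The covariate turned the sign of T0901317 differences in GFP livers for Gnmt (0.033), Mat1a (0.71), Pemt (0.14), the _a_at probe set of Cbs (0.16) and Cth (0.28), in LXRα livers for Mat1a (0.025), and averaged for Mat1a (0.37) and the _s_at probe set of Cbs (0.004). Its slope is fitted within groups and rests mainly on the LXRα T0901317 pair (ratios 2.75 and 36.3), also for the GFP values. Without the 3 arrays of high ratio, Mat1a in LXRα livers was 0.057. Median centring put Pemt in GFP livers at 0.058, and the mean of both Cbs probe sets gave -0.35 there, since they disagree. Leaving out single arrays turned further signs. Between LXRα T0901317 and GFP T0901317 livers the ranges were -0.82 to 0.26 for Gnmt, -1.38 to 0.42 for Mat1a, -0.69 to 0.017 for Bhmt, -0.15 to 0.30 for Ahcy, -0.55 to 0.35 for Gamt, -1.52 to 0.63 for the _a_at probe set of Cbs and -0.87 to 0.16 for Cth. With T0901317 in GFP livers they were -0.57 to 0.14 for Bhmt, -1.10 to 1.08 for Pemt, -0.89 to 0.008 for Gamt and -0.061 to 0.60 for the _s_at probe set of Cbs. In LXRα livers they were -1.75 to 0.057 for Mat1a and -1.37 to 0.60 for Pemt, and averaged over transgenes -0.001 to 0.22 for Ahcy, -0.745 to 0.35 for Pemt and, with no test, -0.50 to 0.74 for Nnmt. The cause of these turns was not tested. Nnmt kept its sign in LXRα T0901317 against GFP T0901317 livers under every setting run, from -2.76 to -1.52.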

Other observations

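Genes of extracellular matrix and stellate cells stood opposite to Nnmt in LXRα livers. Of 10 tested, 9 were higher in LXRα T0901317 than in LXRα vehicle livers, with a median of 1.31 on the log2 scale against -0.05 over all tested probe sets. An unadjusted limma p under 0.05 was found for 6, as for 13.2% of tested probe sets, and 0 were called, where 0.0253% of tested probe sets were. Col3a1, a fibrillar collagen, had 1106 and 968 in LXRα T0901317 livers, 1194 and 462 in GFP T0901317 livers, 215 and 146 in LXRα vehicle livers, and 1421 and 600 in GFP vehicle livers. The LXRα difference of Col3a1 was 2.54 in this probe set and 0.11 in its other tested probe set. The counts and median of this list rest on 1 probe set per gene. Dcn, decorin, had 866 and 1479 in LXRα T0901317 livers and 424 and 374 in LXRα vehicle livers, a difference of 1.51 (limma adjusted p = 0.172).

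Lyve1, a receptor of sinusoidal endothelium, was higher on all 4 T0901317 arrays, with 338 and 290 in LXRα T0901317 livers, 268 and 137 in GFP T0901317 livers, 56.9 and 31.2 in LXRα vehicle livers, and 72.5 and 95 in GFP vehicle livers. Its averaged difference of 2.05 passed the test (limma adjusted p = 0.049), and the call was lost with the β-actin ratio in the fit (adjusted p = 0.114), with no filter (adjusted p = 0.122), after quantile normalization (adjusted p = 0.0656), with the replicate block (adjusted p = 0.0658), and without 7 of the 8 single arrays in turn, all but LXRα T0901317 replicate 1 (adjusted p up to 0.181). Of the 8 tested endothelial markers Lyve1 was the 1 called, where 0.568% of tested probe sets were. In the averaged comparison 6 of the 8 were higher and 2 lower, with a median of 0.33 against -0.04 over all tested probe sets.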
